A study of Homo sapiens with 2 samples.

Results

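The cell cycle genes described here are the 3 D cyclins (CCND1, CCND2, CCND3) and the 7 inhibitors of the kinases they activate (CDKN1A, CDKN1B, CDKN1C, CDKN2A, CDKN2B, CDKN2C, CDKN2D). They were taken by symbol, and all 10 were found among the 33694 genes of the count tables. They were followed across cell classes in 2 single-cell RNA-seq libraries of pancreatic endocrine cells made from human embryonic stem cells.

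D cyclins bind the kinases CDK4 and CDK6 in the G1 phase of the cell cycle, and these complexes phosphorylate RB, which frees E2F factors to switch on the genes of DNA replication. The INK4 inhibitors, encoded by CDKN2A, CDKN2B, CDKN2C and CDKN2D, bind CDK4 and CDK6 themselves, while the CIP/KIP inhibitors, encoded by CDKN1A, CDKN1B and CDKN1C, act on cyclin-bound kinases more broadly. In the pancreas, cyclin D2 is known as the main D cyclin of the mouse beta cell, the imprinted inhibitor encoded by CDKN1C is known for its loss in focal hyperinsulinism, and p16, one product of CDKN2A, is known to build up in islets with age.

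The cells were eBCs, clusters reaggregated from cells sorted for high GFP after differentiation of the MEL-1 INS-GFP line, in which GFP reports the insulin gene. Both libraries came from the iSOX9KO derivative, a single clone that carries a TRE-driven Cas9, its transactivator and guides against SOX9 at the AAVS1 locus, so the controls carried the cassette as well. The question of the design was what loss of SOX9 does in these cells: 1 library was labelled no DOX, and the other was labelled DOX for cells given doxycycline at 2 ug/ml from day 12 of differentiation. There was no replicate of either condition, so the libraries are set side by side without a test, and all intervals are 95% intervals for counting error only.

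There were 30288 barcodes and 550240855 UMIs (unique molecular identifiers, 1 per captured RNA) under the label no DOX, against 31817 barcodes and 520849221 UMIs under DOX. They shared 369 barcode sequences, 1.22% of the first and 1.16% of the second. SOX9 RNA was not lower under the DOX label, at 2.93 and 3.78 UMIs per 1000000 UMIs (CPM) over all cells kept. The library labelled no DOX comes first here, as in all pairs of values that follow. For this line the paper judged SOX9 loss by protein and by cutting at the SOX9 locus. RNA counts do not tell whether the protein was lost. The paper also found SOX9 RNA readily in its ductal cells and hardly any in endocrine cells. A value over all cells therefore says little about endocrine cells. Whether SOX9 was lost in the library labelled DOX was not tested, and DOX and no DOX are used below as labels only. By markers, 16899 cells were beta-like, 9133 alpha-like, 4583 delta-like and 10422 beta cell progenitor-like, and these 4 classes together are called the endocrine classes. Another 1009 cells were proliferating progenitor-like and 329 were duct-like. The 2305 cells left unnamed were shallow (median 1973 UMIs) and 71.1% of their UMIs were mitochondrial at the median. The members were left out of the genes used for clustering and naming, so the classes were not drawn from their values. Partner genes were left out of the clustering genes as well, but HES1 and PDX1 are also class markers and so had a part in the naming, and mitosis and S phase genes were used for both. Each class level is the sum of its UMIs, so fewer cells with the RNA and less RNA per cell cannot be told apart in it.

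Of the 10 members, 8 reached 10 CPM in at least 1 class, and these 8 differed by more than 2-fold between their highest and lowest class. CDKN2A and CDKN2B stayed under 10 CPM in every class. The highest class was the same in both libraries for 8 members, and it differed for CCND2 and CDKN1B. Each D cyclin had its own class at the top or near it: CCND1 was highest in duct-like cells, CCND2 in beta cell progenitor-like and duct-like cells, and CCND3 in proliferating progenitor-like cells. Among the inhibitors, CDKN1C was highest in beta-like cells, CDKN1A in beta cell progenitor-like and proliferating progenitor-like cells, and CDKN2C and CDKN2D in proliferating progenitor-like cells.

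**Figure D1:**
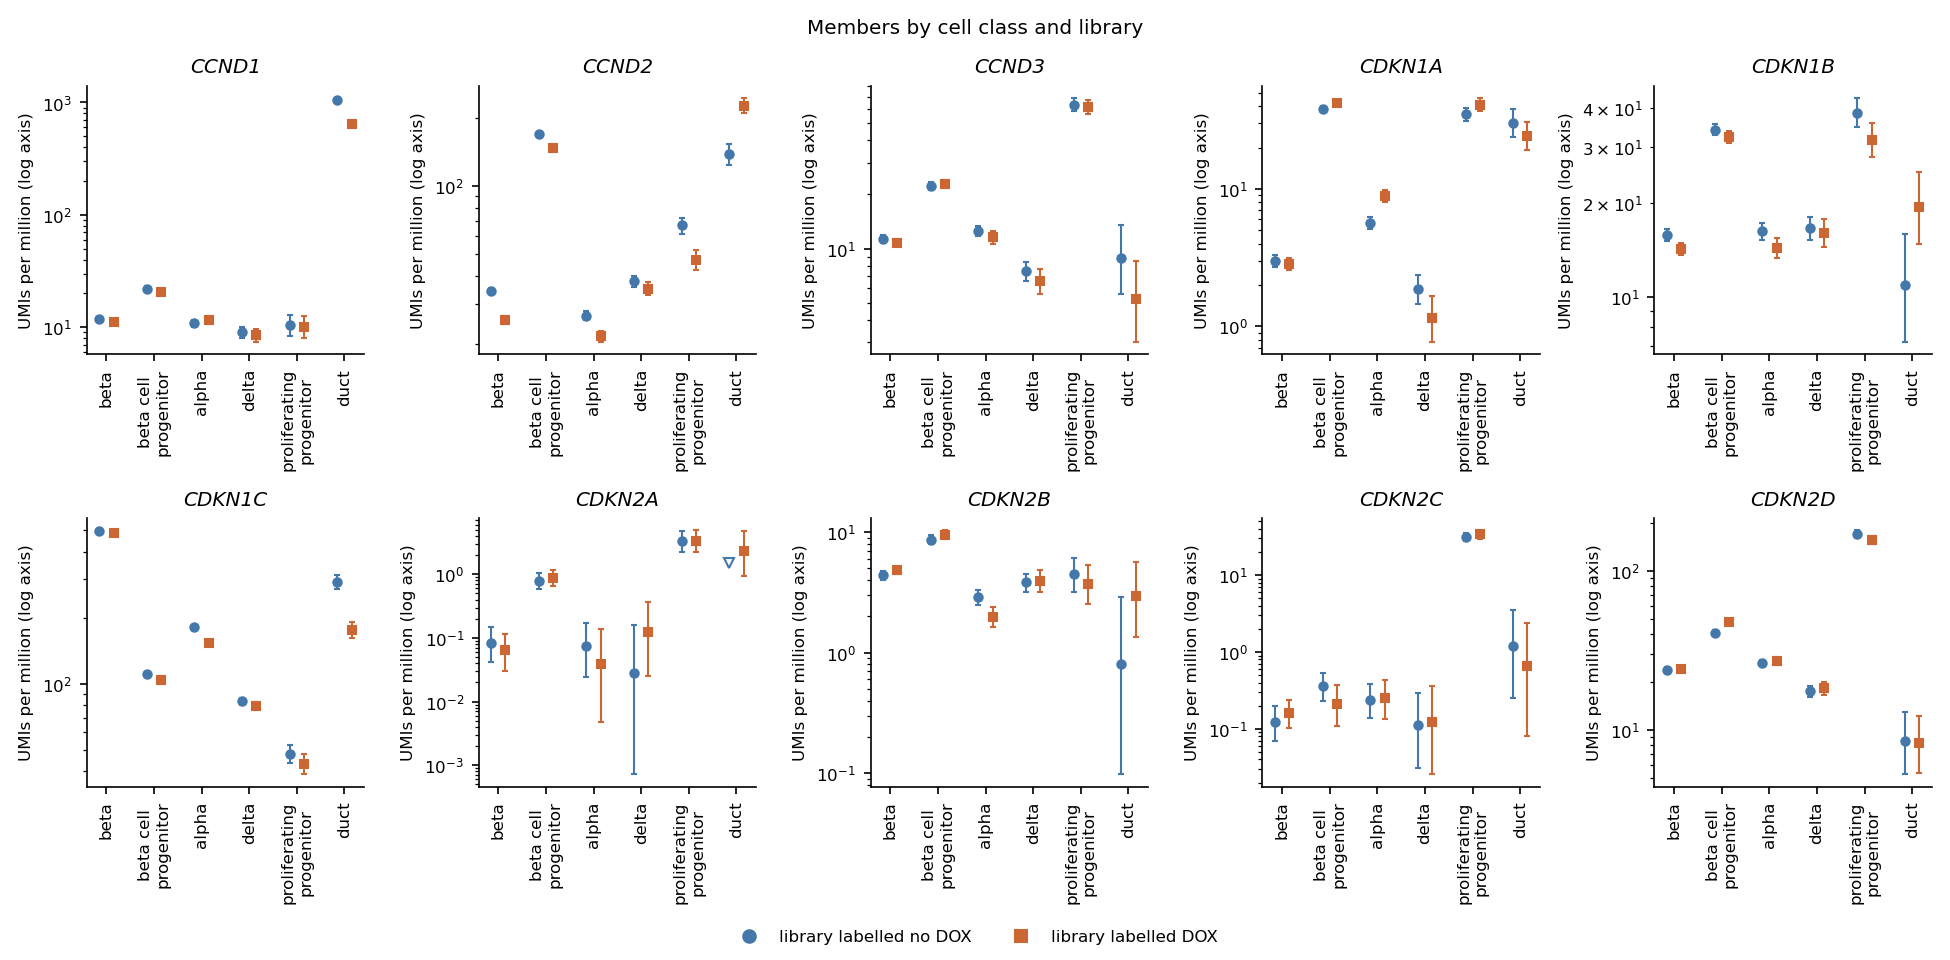
Level of each member (CPM, log axis, with its own range for each gene) in the 6 named classes, with 1 point for each library and bars for the 95% Poisson interval; an open triangle marks a count of 0 at its upper limit. CCND1 stood at 1050.4 and 646 CPM in duct-like cells and at most at 22.0 CPM in the other classes, and CDKN2C stood at 31.2 and 33.8 CPM in proliferating progenitor-like cells and at most at 1.21 CPM elsewhere.

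CCND1 (ENSG00000110092, GRCh38 chr11:69641156-69654474, plus strand) encodes cyclin D1. Beta-like cells had 11.8 and 11.1 CPM, beta cell progenitor-like cells 22.0 and 20.6, and the level was 10.9 and 11.6 in alpha-like cells, 9.07 and 8.50 in delta-like cells, 10.4 and 10.0 in proliferating progenitor-like cells, and 1050.4 and 646 in duct-like cells. The duct-like and beta cell progenitor-like classes were set apart from their neighbours in this order in both libraries, whereas beta-like, alpha-like, proliferating progenitor-like and delta-like cells did not differ from the next class beyond their intervals in either library. Over both libraries, duct-like cells were 62.9-fold above the endocrine classes (log2 5.97, 5.92 to 6.03) and 80.9-fold above proliferating progenitor-like cells (log2 6.34, 6.12 to 6.56). After thinning each cell to 5000 UMIs, 89.7% (83.5 to 94.1, exact Clopper-Pearson) and 72.2% (64.9 to 78.6) of duct-like cells held a CCND1 UMI, against 5.52% and 4.92% of beta-like cells, where the class median before thinning was 14118 and 14630 UMIs in duct-like and 17974 and 14760 in beta-like cells. Before thinning these shares were 96.7% and 86.5% against 15.6% and 13.003%.

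CCND2 (ENSG00000118971, chr12:4269771-4305353, plus strand) encodes cyclin D2, and its annotated span overlaps a further gene on the same strand, ENSG00000285901. Beta cell progenitor-like cells had 169.9 and 147 CPM and beta-like cells 34.4 and 25.5, and the level was 26.8 and 21.7 in alpha-like cells, 37.9 and 35.2 in delta-like cells, 66.9 and 47.1 in proliferating progenitor-like cells and 138 and 226 in duct-like cells. All neighbours in this order were apart beyond their intervals in each library, but the first and the second place were exchanged: beta cell progenitor-like cells came first under no DOX and duct-like cells under DOX. Beta cell progenitor-like cells were 5.45-fold above the other endocrine classes (log2 2.45, 2.41 to 2.48).

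CCND3 (ENSG00000112576, chr6:41934934-42050357, minus strand) encodes cyclin D3 and holds the small RNA gene RNU6-761P within its span on the same strand. Proliferating progenitor-like cells had 63.3 and 61.6 CPM, beta cell progenitor-like cells 22.4 and 22.9, alpha-like cells 12.6 and 11.6, beta-like cells 11.3 and 10.8, delta-like cells 7.46 and 6.56, and duct-like cells 8.88 and 5.27. The duct-like values rest on 22 and 16 UMIs, and their intervals (5.56 to 13.4 and 3.01 to 8.56) overlapped those of delta-like cells. CCND3 was thus 4.72-fold above the endocrine classes in proliferating progenitor-like cells (log2 2.24, 2.14 to 2.33) and below them in duct-like cells (log2 -0.94, -1.44 to -0.48). Duct-like cells therefore had the highest CCND1 and the lowest CCND3 level of the 6 classes under DOX, while under no DOX the lowest CCND3 level was in delta-like cells.

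CDKN1A (ENSG00000124762, chr6:36676460-36687337, plus strand) encodes p21. Beta cell progenitor-like cells had 38.4 and 42.1 CPM, with 34.8 and 41.0 in proliferating progenitor-like cells and 30.3 and 24.4 in duct-like cells, against 5.65 and 8.89 in alpha-like, 3.0005 and 2.85 in beta-like and 1.87 and 1.16 in delta-like cells. The first 3 classes did not differ from their neighbour beyond the intervals under no DOX, and under DOX duct-like cells lay below proliferating progenitor-like cells. Beta cell progenitor-like cells were 10.6-fold above the other endocrine classes (log2 3.40, 3.32 to 3.48).

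CDKN1B (ENSG00000111276, chr12:12685498-12722369, plus strand) encodes p27, which is controlled largely by protein turnover. It had the narrowest range of the 8 members past 10 CPM. Beta cell progenitor-like cells had 34.2 and 32.4 CPM and proliferating progenitor-like cells 38.7 and 31.7, and these did not differ beyond their intervals in either library. The remaining values were 15.8 and 14.2 in beta-like, 16.2 and 14.3 in alpha-like, 16.6 and 16.0 in delta-like and 10.9 and 19.4 in duct-like cells, none of them apart from its neighbour.

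CDKN1C (ENSG00000129757, chr11:2883213-2885775, minus strand) encodes p57 and lies in the imprinted region of 11p15, 721992 bases from INS. Beta-like cells had 496 and 486 CPM, duct-like cells 291 and 176, alpha-like cells 182 and 154, beta cell progenitor-like cells 111 and 104, delta-like cells 83.0 and 79.1, and proliferating progenitor-like cells 47.7 and 42.9. Every neighbour in this order was apart beyond its interval in both libraries. Beta-like cells were 3.87-fold above the other endocrine classes (log2 1.95, 1.94 to 1.97), and proliferating progenitor-like cells were below the endocrine classes by 2.75 on the log2 scale (-2.75, -2.85 to -2.65). INS, the insulin gene and the most abundant of the beta cell markers, was 194952 and 193806 CPM in beta-like, 19585 and 14980 CPM in duct-like cells, and 92106 and 83357 CPM in proliferating progenitor-like cells, and the part of free RNA in the CDKN1C level of the other classes was not tested.

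CDKN2A (ENSG00000147889, chr9:21967752-21995301, minus strand) encodes p16 and ARF from different first exons and a shared end, and these products cannot be told apart in counts from the 3′ end. Its level was at most 0.878 CPM in the endocrine classes. Proliferating progenitor-like cells had 30 and 27 UMIs, or 3.36 and 3.35 CPM, and duct-like cells had 0 and 7 UMIs. The count of 0 has an upper 95% Poisson limit of 1.49 CPM (3 UMIs of that class and library would be 1.21 CPM). The other library had 2.31 CPM (0.927 to 4.75), which overlaps that limit, while the interval of the log2 ratio between the libraries began at 0.23 and so excluded 0. CDKN2B (ENSG00000147883, chr9:22002903-22009305, minus strand), which encodes p15 and lies 7602 bases from CDKN2A, was 8.62 and 9.47 CPM among beta cell progenitor-like cells and 1.98 to 4.80 CPM in the other endocrine and proliferating progenitor-like classes, while duct-like cells had 2 and 9 UMIs. The antisense RNA CDKN2B-AS1, which overlaps both genes on the opposite strand, had at most 0.896 CPM in any class.

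CDKN2C (ENSG00000123080, chr1:50960745-50974634, plus strand) encodes p18. It had 31.2 (27.7 to 35.1) and 33.8 CPM (29.9 to 38.1) in proliferating progenitor-like cells, and 0.199 and 0.183 CPM over the endocrine classes, which is 170-fold lower over both libraries (log2 7.41, 7.11 to 7.71). Duct-like cells had 3 and 2 UMIs. After thinning, 11.1% (8.43 to 14.3) and 12.97% (10.1 to 16.3) of proliferating progenitor-like cells held a CDKN2C UMI, against 0.0303% and 0.125% of beta-like cells, and before thinning 31.5% and 35.0% against 0.23% and 0.252%, at median depths of 17126.5 and 15755 UMIs against 17974 and 14760.

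CDKN2D (ENSG00000129355, chr19:10566460-10569059, minus strand) encodes p19 of the INK4 family. Proliferating progenitor-like cells had 169.8 and 155 CPM, beta cell progenitor-like cells 40.7 and 47.8, alpha-like cells 26.4 and 27.0, beta-like cells 23.9 and 24.1, delta-like cells 17.5 and 18.3, and duct-like cells 8.47 and 8.23. All neighbours in this order were apart in both libraries. The top class was 5.81-fold above the endocrine classes (log2 2.54, 2.48 to 2.60), and duct-like cells were below the endocrine classes by 1.75 on the log2 scale (-1.75, -2.20 to -1.33).

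CDKN2C and CDKN2D were the inhibitors past 10 CPM that were highest in proliferating progenitor-like cells in both libraries and under 10 CPM in duct-like cells, a pattern that CCND3 shared. The promoters of these 2 inhibitors are shown because E2F factors, the output of the pathway they inhibit, act through short motifs near transcription starts. RefSeq promoters on GRCh38.p14 were matched for 7 of the 10 members with 12 windows of 250 bases before a start. Capitals mark the E2F core, searched as TTCCCGC or TTCGCGC and also as TTGCCGC or TTGGCGC on both strands, which was in 10.9% of 35116 promoters of the same kind. The second of the 3 CDKN2C windows, chr1:50968456-50968705 on the plus strand, held 2 matches. The CDKN2D window, chr19:10568980-10569229 on the minus strand, held none. Both are written 5′ to 3′ along the gene.
CDKN2C: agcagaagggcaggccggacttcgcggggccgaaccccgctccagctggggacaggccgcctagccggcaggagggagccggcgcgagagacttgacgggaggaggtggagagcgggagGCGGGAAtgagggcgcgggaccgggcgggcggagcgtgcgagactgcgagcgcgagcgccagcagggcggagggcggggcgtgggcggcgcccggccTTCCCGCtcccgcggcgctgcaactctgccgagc
CDKN2D: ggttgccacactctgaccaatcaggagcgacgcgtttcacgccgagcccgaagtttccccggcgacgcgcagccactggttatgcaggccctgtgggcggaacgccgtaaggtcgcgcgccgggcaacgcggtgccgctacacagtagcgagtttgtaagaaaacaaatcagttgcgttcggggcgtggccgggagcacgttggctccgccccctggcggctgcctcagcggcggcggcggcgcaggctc
No other of the 12 windows held the E2F core, a count to be read against its share of 10.9% of all promoters. None held the CHR element of genes expressed late in the cycle (TTTGAA and TTCGAA, both strands), which was in 14.3% of all promoters, and CCAAT, in 32.0% of all promoters, was in the CDKN2D window once, in the CDKN1B window 2 times, and once each in the third CDKN2C window and in 2 CCND3 windows. A match describes these letters only, and counts from the 3′ end do not tell which start was used.

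Duct-like cells are compared first with the endocrine classes. Of the 7 members with at least 10 CPM on 1 side, 3 were at least 1.5-fold higher (CCND1, CCND2, CDKN1A), where 30.7% of 9659 genes were, and 2 were lower (CCND3, CDKN2D), where 25.3% were. The size of these differences depended on the library for CCND2, with a log2 difference of 1.15 (0.99 to 1.30) under no DOX and 2.19 (2.08 to 2.30) under DOX. CDKN1C was level with the endocrine classes under no DOX (log2 -0.01, -0.12 to 0.10) and lower under DOX (-0.86, -0.98 to -0.73). CDKN1B went from -0.87 (-1.47 to -0.33) to 0.11 (-0.28 to 0.48). Duct markers were all 13 past 10 CPM in both libraries, with a summed level of 6659 and 4325 CPM, while the proliferating progenitor list, 13 of 13 past 10 CPM, summed to 1278 and 1484 CPM, so RNA of both lists was present.

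In proliferating progenitor-like cells, 5 of 8 members were at least 1.5-fold above the endocrine classes (CCND3, CDKN1A, CDKN1B, CDKN2C, CDKN2D), where 21.5% of 9206 genes were, and 1 was lower (CDKN1C), where 5.17% were. CCND1 and CCND2 lay within 1.5-fold of the endocrine classes, at log2 -0.36 (-0.59 to -0.15) and 0.04 (-0.06 to 0.13). Their duct markers summed to 77.5 and 94.2 CPM and no acinar, mesenchymal or endothelial marker reached 10 CPM in them. The 2 cycling classes, duct-like and proliferating progenitor-like, were also set directly against each other. Duct-like cells were higher in 3 of 8 members (CCND1, CCND2, CDKN1C), where 20.3% of 9841 genes were. They were lower in 4 (CCND3, CDKN1B, CDKN2C, CDKN2D), where 33.3% were, and the counts are to be read against these shares. CDKN1A, above the endocrine classes in both, lay within 1.5-fold between them.

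Among the endocrine classes, beta cell progenitor-like cells were at least 1.5-fold above the others for 6 of 7 members, all but CDKN1C, and 50.1% of 9304 genes were as well, with a median of all genes of 0.59 on the log2 scale. The count is to be read against that background, with CCND1 at log2 0.95, CCND3 at 1.07, CDKN1B at 1.13 and CDKN2D at 0.88. CDKN1A (3.40) and CCND2 (2.45) lay further above that median. CDKN1C was lower there by 1.73 on the log2 scale (-1.73, -1.76 to -1.705), as 5.94% of genes were. Beta-like cells had 1 member higher (CDKN1C, where 4.69% of genes were) and 3 lower (CDKN1A, CCND2, CDKN1B, where 26.6% were). CDKN1B was past 1.5-fold there at log2 -0.61 over both libraries and not in the library labelled no DOX alone (-0.56). Nor did it pass with doublets kept (-0.55) or with hormone and mitochondrial genes left out of the total (-0.58).

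Alpha-like cells had no member higher, where 7.51% of genes were, and 3 lower (CCND2, CDKN1A, CDKN1C), where 13.9% were, although CDKN1A missed this limit in the library labelled DOX (log2 -0.44, -0.59 to -0.30). Delta-like cells had no member higher, where 4.83% of genes were, and 6 of 7 lower, all but CDKN1B, where 21.2% were. CCND2 missed the limit there under DOX (-0.53, -0.63 to -0.43), and with hormone and mitochondrial genes left out of the total the count was 3.

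Finer clusters divided the beta-like cells by CDKN1C. The Beta-1-like cluster led by MXRA8 (2356 cells) had 734 and 707 CPM, the Beta-1-like cluster led by MT1B (9135 cells) 509.5 and 484, and the Beta-2-like cluster led by ASIC1 (4828 cells) 404 and 385. CCND2 ran the other way, with 15.7 and 12.7, 29.9 and 25.1, and 47.6 and 32.1 CPM in the same order, and CCND3 was 21.4 and 17.6 CPM in the first of them and at most 10.4 in the other 2. CDKN1A stayed between 2.54 and 3.51 CPM in these 3 clusters.

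Beta cell progenitor-like cells also split into a cluster of 8280 cells led by NTRK3 and one of 1002 cells led by CA2, the gene of a carbonic anhydrase. CDKN1A was 46.0 and 51.4 CPM in the first and 8.05 and 7.91 in the second, and CCND2 was 196.6 and 172 against 83.0 and 67.7 CPM. CDKN2D was lower in the first, at 41.0 and 47.1 CPM against 71.9 and 80.0 CPM. The high CDKN1A level of the class thus came from the larger cluster. CDKN1C did not divide them in the library labelled DOX, at 86.8 CPM (84.1 to 89.7) and 88.7 CPM (80.8 to 97.2).

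**Figure D2:**
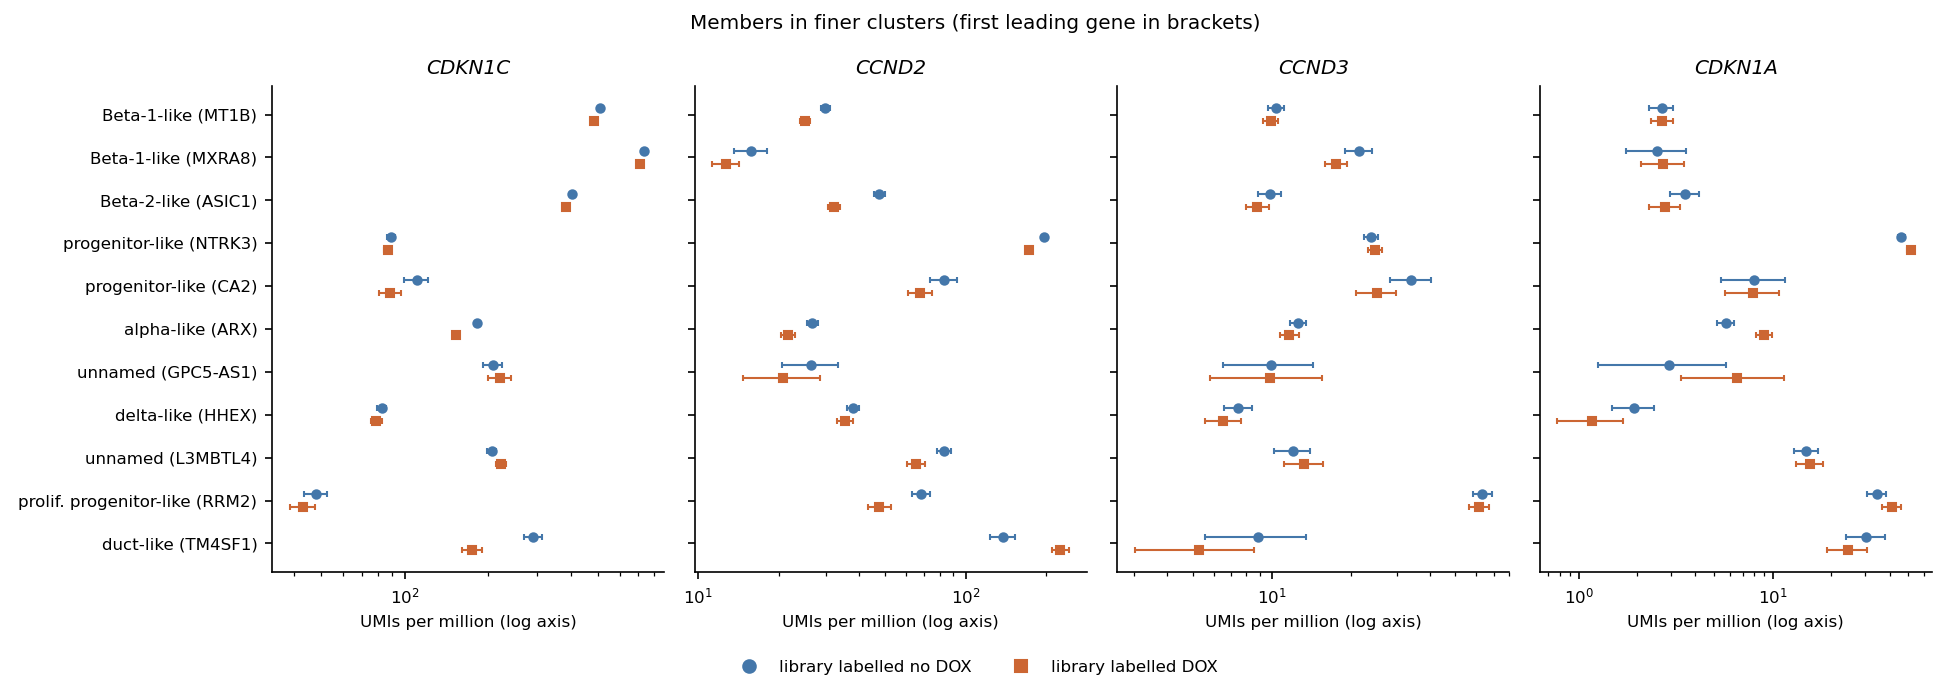
CDKN1C, CCND2, CCND3 and CDKN1A (CPM, log axes) in 11 finer clusters, each named with its first leading gene in brackets, with 1 point for each library and bars for the 95% Poisson interval; 3 unnamed clusters are not drawn. The 2 Beta-1-like clusters lay above the Beta-2-like cluster in CDKN1C and below it in CCND2, and the progenitor-like cluster led by NTRK3 had the highest CDKN1A in both libraries.

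The 2 cycling classes were then divided by UMIs of 12 mitosis genes (among them TOP2A, MKI67 and CCNB1) after thinning to 5000 UMIs. In proliferating progenitor-like cells 26 and 35 cells held none, 128 and 122 cells held 1 to 4, and 313 and 321 cells held 5 or more. S phase genes, summed over all UMIs of the cells, had 1499 and 1510 CPM, 1994 and 1896 CPM, and 1746 and 1790 CPM in these bins. Cells with no mitosis UMI after thinning thus held S phase RNA, and they may have held mitosis RNA as well. Mitosis genes defined the class, and the bins order cells by the same RNA, but no member was used for either.

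CDKN2D was higher in cells with the most mitosis RNA: it was 44.1 and 25.8 CPM in cells with none, 35.9 and 47.7 CPM with 1 to 4, and 226 and 205 CPM with 5 or more, a log2 difference between the ends of 2.67 (2.18 to 3.21) over both libraries. CDKN1A had 2 and 2 UMIs in the first bin, 11.7 and 9.44 CPM in the second and 44.8 and 56.3 CPM in the third (log2 3.61, 2.25 to 5.49). CDKN2C had 11.6 and 7.38, 9.87 and 10.5, and 39.3 and 43.97 CPM (log2 2.17, 1.23 to 3.30), and CDKN1B 13.9 and 14.8, 20.6 and 16.3, and 47.6 and 39.1 CPM (log2 1.598, 0.84 to 2.48). For these 4 inhibitors the last bin was above both others, beyond the intervals, in each library, whereas the first 2 bins overlapped. CDKN1C was higher in the last bin than in the first over both libraries (log2 0.60, 0.08 to 1.16). Its interval included 0 in each library alone.

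The D cyclins did not follow. CCND3 was 58.0 and 57.2, 63.3 and 51.4, and 63.5 and 65.5 CPM, with overlapping intervals (log2 between the ends 0.16, -0.23 to 0.58). CCND2 was highest in the middle bin, at 102 and 88.1 CPM, and lowest with 5 or more mitosis UMIs, at 54.1 and 31.8 CPM. CCND1 was 27.8 and 12.9, 13.9 and 13.6, and 7.80 and 8.50 CPM, and its ends were apart under no DOX (log2 -1.84, -2.77 to -0.79) but not under DOX (-0.60, -1.76 to 0.79).

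In duct-like cells 45 and 42 cells held no mitosis UMI and 64 and 88 cells held 5 or more. CCND1 stayed high across the bins, at 1103 and 751 CPM in the first and 1087 and 662 CPM in the last. CDKN1C was lower in the last, unlike in proliferating progenitor-like cells, at 236 and 146 CPM against 373 and 305 CPM (log2 -0.91, -1.09 to -0.72). The S phase sum was 395 and 368 CPM in the first bin and 1087 and 986 CPM in the last. CDKN1A was lower in the last bin over both libraries (log2 -0.63, -1.18 to -0.07), unlike in proliferating progenitor-like cells. Its interval excluded 0 under no DOX (-0.88, -1.66 to -0.11) and included 0 under DOX (-0.20, -1.06 to 0.74). The difference between the classes was not tested. CDKN1B was higher in the last bin over both libraries (log2 1.14, 0.27 to 2.13), as in proliferating progenitor-like cells, although its interval included 0 under no DOX alone (0.76, -0.65 to 2.39). CDKN2D was too, by an interval that barely excluded 0 (1.28, 0.0089 to 2.83), and reached at most 13.04 CPM in any bin. Under DOX alone the CDKN2D interval included 0 (0.62, -0.99 to 2.64).

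**Figure D3:**
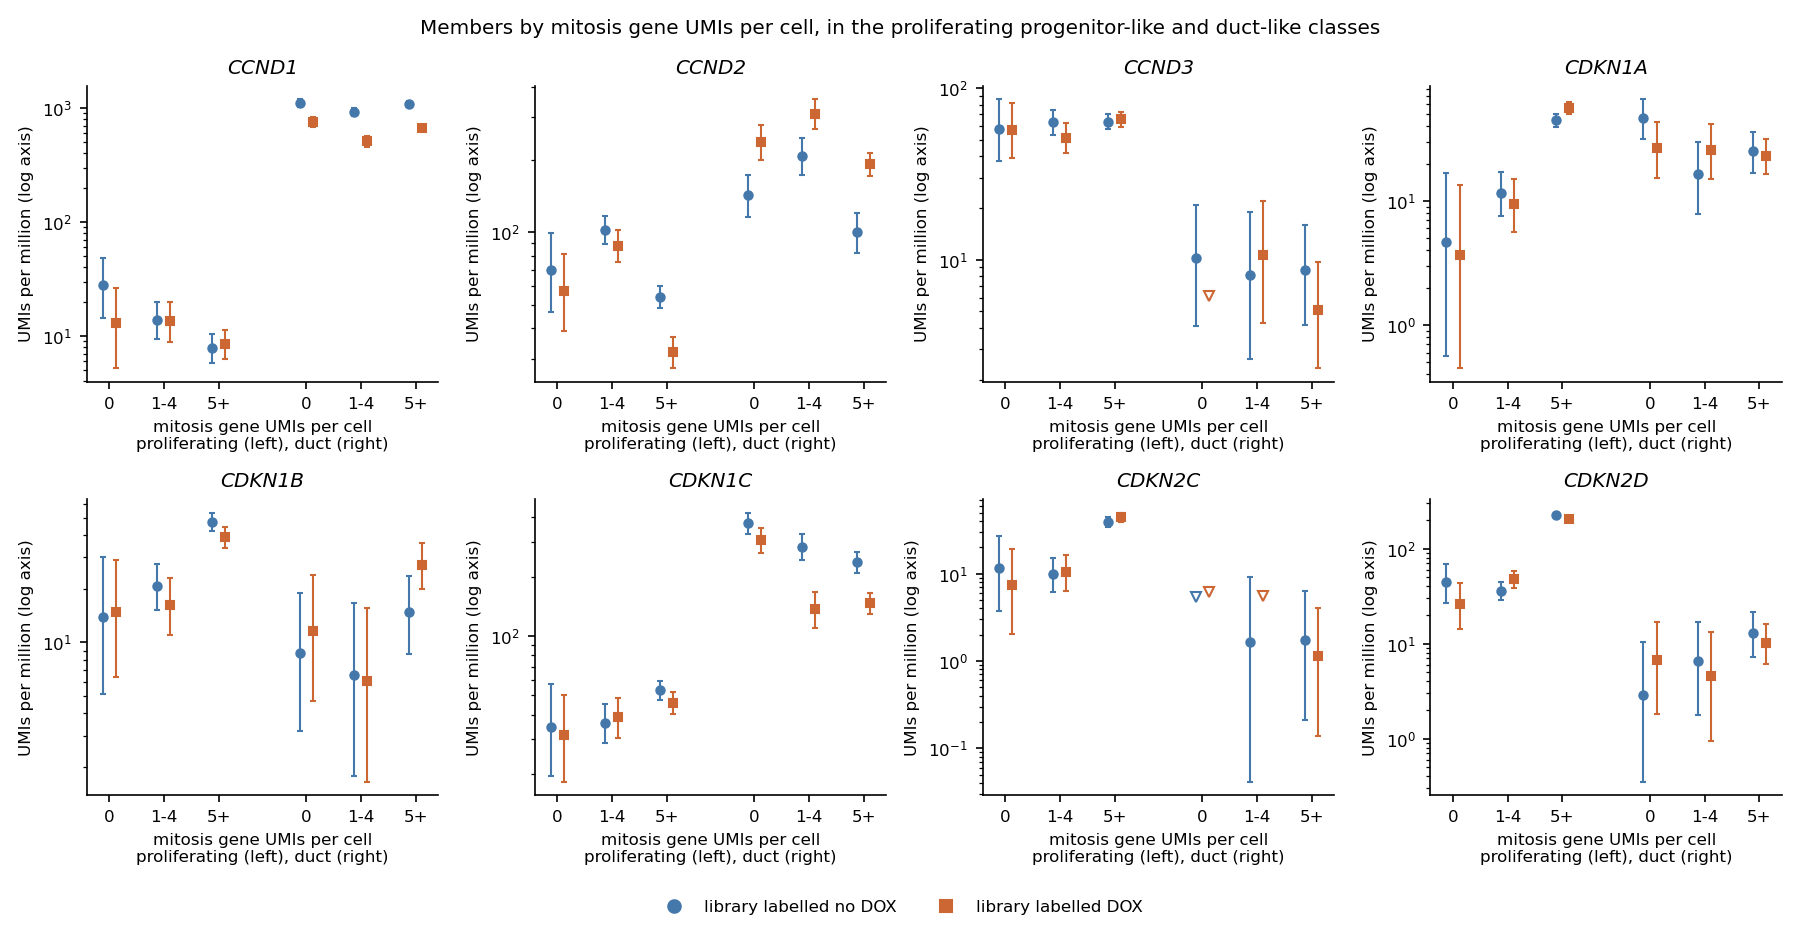
8 members (CPM, log axes) in proliferating progenitor-like cells (left of each panel) and duct-like cells (right), by UMIs of 12 mitosis genes per cell after thinning to 5000 UMIs, with bars for the 95% Poisson interval and open triangles for a count of 0 at its upper limit. CDKN1A, CDKN1B, CDKN2C and CDKN2D stood highest in proliferating progenitor-like cells with 5 or more mitosis UMIs, and CCND3 was level across these bins.

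Between the labelled libraries, no member with at least 10 CPM differed by 1.5-fold over all cells kept, where 0.144% of 8324 genes were higher by that much under DOX and 0.36% lower. The widest was CCND2, at 62.9 and 51.0 CPM (log2 -0.30, -0.33 to -0.27). CCND1 (-0.18), CDKN1B (-0.15) and CDKN1C (0.11) followed, and CCND3 (-0.07), CDKN1A (0.07) and CDKN2D (0.03) were nearest to 0. These values over all cells also carry the makeup of the libraries, with 6963 and 9936 beta-like cells. CDKN1C, higher under DOX over all cells, was below 0 within each named class, at -0.03 in beta-like, -0.10 in beta cell progenitor-like, -0.24 in alpha-like, -0.07 in delta-like, -0.15 in proliferating progenitor-like and -0.73 in duct-like cells. With every named class weighted equally, so that 329 duct-like cells counted as much as 16899 beta-like cells, CCND1 was at -0.65, past 1.5-fold, and the sign changed for CCND2 (0.085), CDKN1C (-0.22) and CDKN2D (-0.030). CCND2 was lower under DOX in beta-like (-0.43, -0.49 to -0.37), proliferating progenitor-like (-0.51, -0.69 to -0.32), alpha-like (-0.30) and beta cell progenitor-like cells (-0.21), and its interval included 0 in delta-like cells (-0.11, -0.24 to 0.02). In proliferating progenitor-like cells, beta cell progenitor markers summed to 1630 and 1255 CPM and beta markers to 93170 and 84346 CPM. Alpha markers summed to 8404 and 13671 CPM there and delta markers to 21847 and 11721 CPM. The part of these shifts in the CCND2 difference was not tested. Over the endocrine classes together 0 members passed 1.5-fold, where 0.145% of 8278 genes were higher and 0.374% lower. No member passed 1.5-fold in beta-like cells, where 0.13% of genes were higher and 0.443% lower, nor in beta cell progenitor-like (0.241% and 0.23%), alpha-like (0.216% and 0.419%), delta-like (0.0899% and 0.308%) or proliferating progenitor-like cells (0.528% and 0.814%). CDKN1A in alpha-like cells was 5.65 and 8.89 CPM (log2 0.65, 0.45 to 0.85), under the 10 CPM required of a call. In delta-like cells CDKN1A went the other way at a lower level, 1.87 and 1.16 CPM (-0.70, -1.39 to -0.04).

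**Figure D4:**
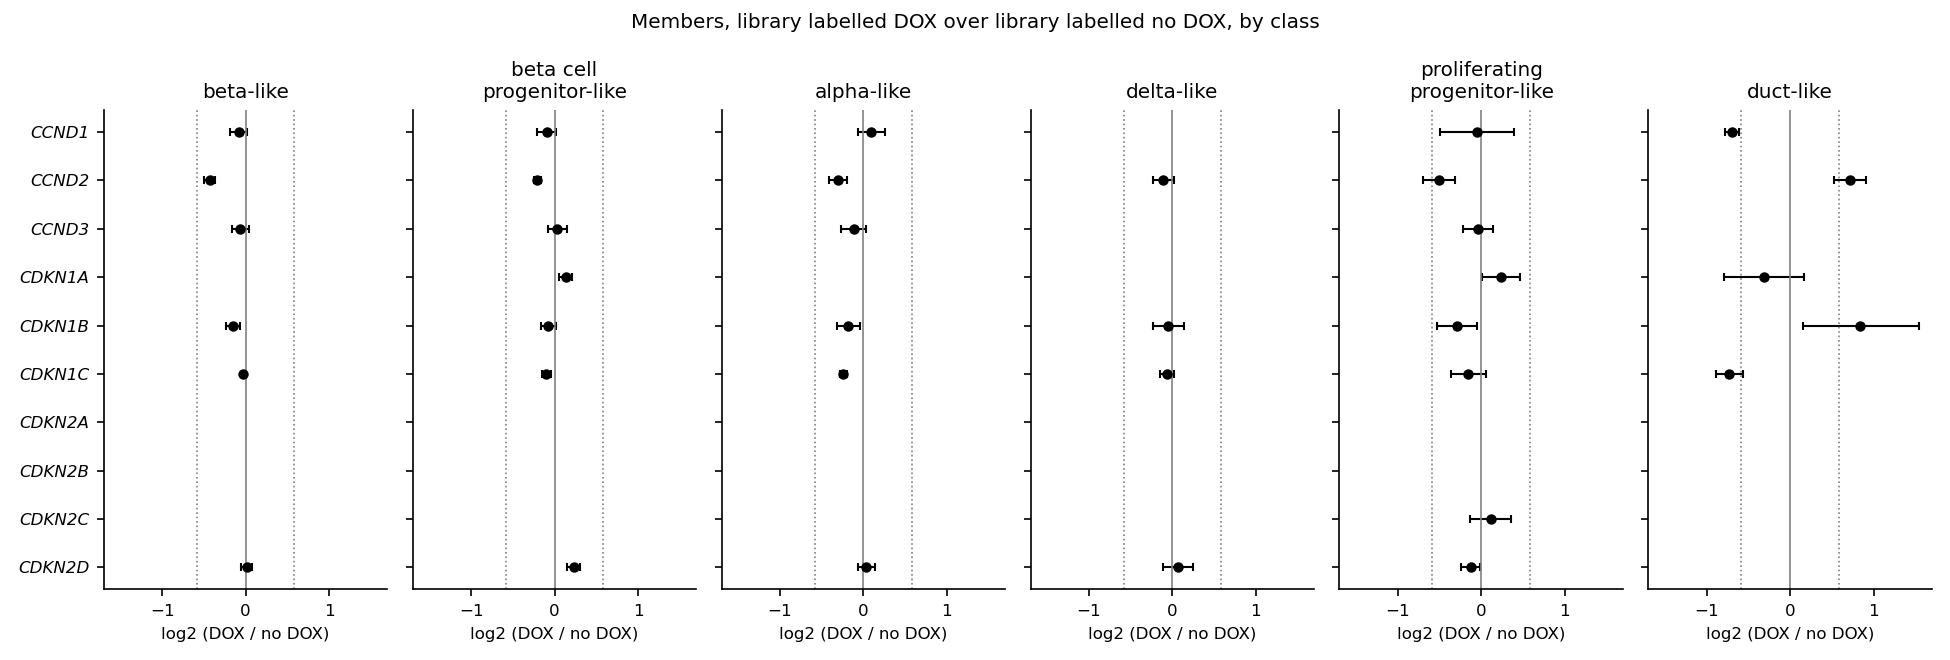
DOX over no DOX, by label, as a log2 ratio for members with at least 10 CPM in 1 library, by class, with bars for the 95% binomial interval and dotted lines at 1.5-fold. The points lie between the dotted lines in 5 classes, and in duct-like cells CCND1 and CDKN1C lie below and CCND2 and CDKN1B above them.

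Duct-like cells were the exception, and a set of few cells (151 and 178). CCND1 was 1050.4 and 646 CPM (log2 -0.70, -0.79 to -0.62) and CDKN1C 291 and 176 CPM (-0.73, -0.89 to -0.57), lower under DOX by more than 1.5-fold as 7.63% of 8885 genes were. CCND2 was 138 and 226 CPM (0.71, 0.52 to 0.90) and CDKN1B, from 27 and 59 UMIs, was 10.9 and 19.4 CPM (0.83, 0.15 to 1.55), higher as 5.67% of genes were. CDKN1A did not differ beyond its interval (-0.31, -0.80 to 0.17). With doublets kept, CCND2 was at 0.57, CDKN1B at 0.28 and CDKN1C at -0.18, all under 1.5-fold, and after thinning to 5000 UMIs CDKN1B was at 0.53 and CDKN1C at -0.57. The duct-like class was the smallest of the named classes, and these background shares were the highest among the named classes.

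Markers of another cell type moved with these values. The duct list fell in its sum from 6659 to 4325 CPM, while the acinar list, with 5 and 7 of 8 genes detected and 2 and 3 past 10 CPM, summed to 125 and 499 CPM. Mesenchymal markers summed to 20.98 and 14.8 CPM with none past 10 CPM, and endothelial markers to 2.42 and 2.64 CPM. The part of the acinar RNA in the differences of CCND1, CCND2, CDKN1B and CDKN1C was not tested.

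Partner genes of the pathway gave the setting of these levels. In duct-like over endocrine classes, 3 of 6 G1 kinase and cyclin E genes were at least 1.5-fold higher and none lower, led by CCNE1 (log2 3.98), CDK4 (1.37) and CDK7 (1.28). Of the RB and E2F genes 5 of 10 were higher and none lower, led by E2F7 (6.58), RBL1 (2.93) and E2F3 (2.12). Of the genes that control turnover of the members 2 of 6 were higher, CKS1B (3.40) and SKP2 (2.37), which belong to the ligase that degrades p27, and 1 was lower, DDB1 (-0.77). Upstream regulators had 9 of 15 higher and 2 lower, with FOXM1 (5.55) and EZH2 (3.26) at one end and FOXO1 (-1.13) and BMI1 (-0.94) at the other. The 9 include HES1, a Notch target that is one of the duct markers used for naming, so its level there is no finding. Over all genes 30.7% were higher and 25.3% lower, with a median of 0.10.

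Proliferating progenitor-like cells had 5 of 8 G1 kinase and cyclin E genes higher, led by CCNE2 (6.24), CDK2 (4.68) and CCNE1 (4.23), and 1 lower, CDK6 (-0.84). RB and E2F genes were higher in 9 of 13 and lower in none, led by E2F8 (8.66), E2F7 (8.11) and E2F2 (7.70), where 21.5% of all genes were higher and 5.17% lower, with a median of 0.15. CCNE2, which encodes a cyclin that acts after the D cyclins, was 58.8 and 66.2 CPM there and 5.25 and 6.92 CPM in duct-like cells, while E2F1 was 117 and 108 CPM against 9.28 and 10.5 CPM. CDK4, the main partner of the D cyclins, was 159 and 164 CPM in duct-like cells, 106 and 104 CPM in proliferating progenitor-like cells and 61.8 and 63.4 CPM in endocrine cells. Mitosis genes (12 of 12) and S phase genes (14 of 14) stood above the endocrine level in both cycling classes, which these genes helped to define.

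Around CDKN1C on 11p15, IGF2, a growth factor gene of the same imprinted region, was 6340 and 6107 CPM in duct-like and 710 and 903 CPM in endocrine cells (log2 2.95). KCNQ1OT1, the noncoding RNA of the domain that holds CDKN1C, was 289 and 174 CPM in duct-like cells (log2 between the libraries -0.73, -0.89 to -0.57), a difference of the same sign and nearly the size of that of CDKN1C there, and 41.9 and 42.5 CPM in proliferating progenitor-like cells, where CDKN1C was lowest. In beta-like cells, where CDKN1C was highest, it was 118 and 118 CPM, and in beta cell progenitor-like cells 116 and 102 CPM, so the 2 RNAs did not keep 1 order over the classes. Of the 10 genes listed at the 9p21 and 11p15 loci, 9 were measured and 4 reached 10 CPM on 1 side in duct-like over endocrine classes, and all 4 were higher there, as 30.7% of all genes were.

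Between the libraries in duct-like cells, 1 of 7 G1 kinase and cyclin E genes was at least 1.5-fold higher under DOX and 2 were lower. RB and E2F genes had 1 of 11 higher and 0 lower, and turnover genes 0 of 5 either way. Upstream regulators had 2 of 16 higher and 0 lower. The counts are to be read against 5.67% of all genes higher and 7.63% lower. Among the genes called, CDK6 was 84.3 and 47.4 CPM (log2 -0.83, -1.15 to -0.52) and HES1 265 and 457 CPM (0.79, 0.65 to 0.92). MYCN was 16.1 and 29.3 CPM (0.86, 0.31 to 1.44) and E2F4 17.8 and 28.3 CPM (0.67, 0.13 to 1.23). CDK4 was 159 and 164 CPM (0.04, -0.15 to 0.24). The mitosis genes had none of 12 past 1.5-fold, with a median of 0.27 on the log2 scale.

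Likeness of pattern was measured as the Pearson correlation of log2(CPM + 1) over 12 profiles (6 classes in 2 libraries) among 11026 genes. The profiles share libraries and class sizes, so these values describe and test nothing. CCND1 was most like ACTA2 (0.996), TAGLN and WDR91, CCND2 like SETD4 (0.987), KIAA0753 and PABPN1, and CCND3 like MRPS26 (0.982), EMC9 and TRMU. CDKN1A was most like BRD1 (0.987), SZRD1 and HDAC1, CDKN1B like SMIM13 (0.985), ADAM22 and ORC5, and CDKN1C like IGDCC3 (0.948), TOMM20 and TESC. CDKN2A was most like CSPG5 (0.956), NUP43 and DIAPH1, CDKN2B like ATP7A (0.965), CREB3L1 and GRAMD1B, CDKN2C like SYT10 (0.990), HSPB11 and CCDC74A, and CDKN2D like RAB39A (0.982), LRRC26 and CYB561A3. Among the members themselves, CCND3 and CDKN2D were the most alike (0.962), followed by CCND3 and CDKN2C (0.828), and CDKN1B and CDKN1C were the least alike (-0.687).

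Unnamed cells, of low depth, had 6.18 and 18.7 CPM of CDKN1A, from 17 and 58 UMIs (log2 1.5995, 0.80 to 2.47), where 13.7% of 7127 genes were higher under DOX and 1.19% lower. With a minimum of 2000 UMIs per barcode this difference was 0.10.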

How the data were processed

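RNA of single cells was measured in 2 libraries, 1 for each condition. The authors deposited whole-number UMI counts per gene and barcode on GRCh38. Cell Ranger 3.0.2 stands in the file headers and kallisto with bustools 0.40.0 in the methods, so which tool made the counts, and whether it used strand, could not be settled. LTO1, GPR19 and DINOL overlap CCND1, CDKN1B and CDKN1A on the opposite strand.

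A minimum of 1000 UMIs left 29703 and 31456 barcodes, of which Scrublet doublets (27.4% and 26.5%) were removed to leave 21563 and 23117 cells. Cells were clustered with scanpy 1.11.5 and leidenalg 0.10.2 on 2281 genes, with 50 principal components and 3 neighbours from each library. Clusters were named from markers taken from the study's own cluster genes, chosen on these libraries and so not independent. Levels are summed UMIs per 1000000 UMIs (CPM) with exact Poisson intervals; the intervals of ratios are exact binomial, conditional on the summed UMIs, and those of shares are Clopper-Pearson (scipy 1.17.1). A difference was called at 1.5-fold with at least 10 CPM on 1 side. With 1 library per condition no test was run.

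All 10 members were named, together with the members of fixed partner lists that led each comparison. Members and lists were chosen with earlier results of these data known. Positions come from GENCODE on GRCh38, matched by Ensembl ID, and promoters from RefSeq on GRCh38.p14. Protein sequences were not analysed here, and some further results are not reported here. The ratios and their intervals were tried on simulated Poisson counts, which is the model they assume, so spread between cells or libraries was not covered. The alternatives tried are given after the report.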

Additional observations from a re-analysis of the deposited data

Results flagged for a closer look

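For CCND2, DOX over no DOX, by label and on the log2 scale, had opposite signs in duct-like cells and in 4 other classes. The duct-like ratio was above that of beta-like cells by 1.15, beta cell progenitor-like cells by 0.922, alpha-like cells by 1.02 and proliferating progenitor-like cells by 1.22. CDKN1B showed the same opposition, and its duct-like ratio was above that of beta-like cells by 0.984, alpha-like cells by 1.02 and proliferating progenitor-like cells by 1.12. With 1 library per condition none of these differences was tested. The CDKN1B values rest on 27 and 59 UMIs in duct-like cells, where the acinar marker list summed to 125 and 499 CPM.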

How the results depend on the processing

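No paired analysis was possible because the labels carry no replicate numbers and each condition is 1 library, so no library could be left out either. The counts of members called kept within 1.5 times their value except as follows. With a smaller fold required, the count for beta-like over the other endocrine classes went from 4 to 7, and the counts between the libraries went from 0 to 1 in beta-like and in proliferating progenitor-like cells. With a fold of 2, delta-like over the other endocrine classes went from 6 to 2 and the duct-like count between the libraries from 4 to 0. With hormone and mitochondrial genes left out of the total, delta-like went from 6 to 3 and alpha-like between the libraries from 0 to 1, as it did with at least 5 CPM. After thinning to 5000 UMIs, the proliferating progenitor-like count between the libraries was 1 and the duct-like count 2. The duct-like count was 1 with doublets kept. With doublets kept, the duct-like log2 ratios were 0.57 for CCND2, 0.28 for CDKN1B and -0.18 for CDKN1C, and no cluster was named proliferating progenitor-like, so those comparisons have no value there. The cause of these changes was not tested. No value changed direction among those called. Among values over all cells that were not called, equal weights for the named classes took CCND1 to -0.65, past 1.5-fold, and changed the sign of CCND2 (to 0.085), CDKN1C (to -0.22) and CDKN2D (to -0.030). Few duct-like cells (329) limit CDKN1B, CDKN2A and CDKN2B there.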
